A study of Homo sapiens with 6 samples.

Results

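The microRNA genes outside the imprinted DLK1-DIO3 region of chromosome 14 were read in SUM159 cells, an established human triple-negative breast cancer line used as a model of the mesenchymal stem-like subtype. Members were the genes whose symbol is MIR followed by a digit, or MIRLET7 with its letters, without host-gene symbols ending in HG and without the 15 microRNA genes between DLK1 and DIO3. A gene was read from transcript clusters (the array's unit of measurement, a set of probes summarised together) that carry 1 gene symbol. This gave 157 members among 18276 genes, each with its own transcript cluster, and RefSeq lists all 157 as microRNA genes. The rule itself used no measured value, though members were chosen with earlier results of these data known. No filter on low signal was applied to the members. They lie on every autosome and on X, with 14 each on chromosomes 1 and 9 and 13 each on 17 and 19.

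RNA was taken from cells grown in matrigel, a basement membrane gel that lets them form three-dimensional structures, and was labelled as a day 6 culture. The comparison was of 3 arrays of TβRIII-KD cells, with a stable lentiviral short hairpin RNA against TGFBR3 (the gene of the type III TGF-β receptor, TβRIII) selected in puromycin, with 3 arrays of control cells, for which the labels name no agent. TβRIII-KD is the name given in the study's methods to cells with 1 of the hairpin clones. The cells share the line, the culture and the total RNA extraction, and no source used here tells if the arrays within a group stem from separate cultures, so that p-values measure the spread between these arrays, which may be technical.

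A microRNA is made from a long primary transcript that carries a hairpin. The nuclear enzyme DROSHA with DGCR8 cuts the hairpin out, exportin 5 carries it to the cytoplasm and DICER1 trims it to a short duplex, from which an Argonaute protein keeps a strand. That mature strand pairs through its seed, the bases 2 to 8 from its 5′ end, with messenger RNAs and lowers their output. The arrays used here measure RNA of a transcript cluster that covers the hairpin and could not tell a primary transcript or precursor from other RNA over the same bases. The mature microRNAs themselves were not measured.

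The sequences of the members on which the results turn are shown first, since what a change in a microRNA gene can reach is set by its seed and by which other genes carry the same seed. All are RefSeq sequences on build GRCh38.p14. A hairpin was found for 140 of the 157 members and at least 1 mature sequence for 148, giving 268 mature sequences. The hairpin of MIR95, the member with the largest change, covers 81 bases at chr4:8005301-8005381 on the minus strand. The capitals in it mark both mature strands.
MIR95 hairpin: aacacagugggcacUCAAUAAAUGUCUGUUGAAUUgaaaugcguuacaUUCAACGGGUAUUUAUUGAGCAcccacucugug

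In the mature sequences that follow, the capitals mark the seed. The first pair are the strands of MIR95. The next is that of MIR21, whose hairpin lies at chr17:59841266-59841337 on the plus strand. The strands of MIR221 and MIR222, from hairpins at chrX:45746157-45746266 and chrX:45747015-45747124 on the minus strand, share the seed GCUACAU. That of MIR218-1, at chr4:20528275-20528384 on the plus strand, is also encoded by MIR218-2. The miR-103a and miR-107 strands share the seed GCAGCAU, and the miR-125a and miR-125b strands share CCCUGAG. The last are the seeds of the let-7 and miR-181 families.
hsa-miR-95-3p: uUCAACGGguauuuauugagca
hsa-miR-95-5p: uCAAUAAAugucuguugaauu
hsa-miR-21-5p: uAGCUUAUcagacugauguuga
hsa-miR-221-3p: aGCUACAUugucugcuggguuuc
hsa-miR-222-3p: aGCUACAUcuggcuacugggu
hsa-miR-218-5p: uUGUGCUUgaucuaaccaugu
hsa-miR-103a-3p: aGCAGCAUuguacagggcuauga
hsa-miR-107: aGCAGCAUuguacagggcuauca
hsa-miR-125a-5p: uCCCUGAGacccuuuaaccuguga
hsa-miR-125b-5p: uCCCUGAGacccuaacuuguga
hsa-let-7a-5p: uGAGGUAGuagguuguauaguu
hsa-miR-181a-5p: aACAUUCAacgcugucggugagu

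Values are log2 signals as the authors deposited them, and a log2 fold change is the mean of TβRIII-KD minus that of control. The median signal of an array over all 22148 transcript clusters lay between 7.67 and 7.71. TGFBR3 read 10.81, 10.89 and 10.56 in control and 9.72, 10.01 and 10.16 in TβRIII-KD. It fell by 0.79 (SE 0.13, adjusted p = 0.0145), with no overlap between groups. That call was lost without control replicate 1 (adjusted p = 0.0770), control replicate 2 (0.0554) or TβRIII-KD replicate 2 (0.0625). It was also lost with the methods' t-test, a t-test per transcript cluster without moderation (0.198). The study's methods name this t-test under general statistics, and limma for these arrays. The mesenchymal markers VIM, FN1 and CDH2 read between 10.06 and 13.55 in both groups, and the epithelial markers CDH1 and EPCAM between 5.35 and 5.95. The keratins KRT8 and KRT18 read 11.83 and 11.07 in control and 11.47 and 10.68 in TβRIII-KD, neither past the test.

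MIR95 was the member that fell in TβRIII-KD. It is a microRNA gene known for raised levels in several tumours. Its signal was 6.78, 6.99 and 7.20 in control and 4.71, 3.84 and 5.31 in TβRIII-KD. Every TβRIII-KD array thus lay more than 1 log2 unit below every control array. The mean went from 6.99 ± 0.21 to 4.62 ± 0.74 (SD over 3 arrays), a log2 fold change of -2.37 (SE 0.31, 95% interval -3.08 to -1.66, adjusted p = 0.00534 by limma). With any single array left out, the fold change lay between -2.71 and -1.98 and the adjusted p between 0.000943 and 0.0244. The methods' t-test gave an adjusted p of 0.173. Over all alternatives tried, the adjusted p ran from 0.000750 to 0.173. The exact permutation test gave a p of 0.1, which is the smallest that 3 arrays against 3 allow. The 3 TβRIII-KD arrays spread more widely than the control arrays, with replicate 2 the lowest. The mean signal of MIR95 stood at the 16.2 percentile of all transcript clusters, and whether the TβRIII-KD signals lay above background was not analysed here.

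At the study's cutoff, an adjusted p under 0.05 with an absolute log2 fold change over 0.5, MIR95 was the only member called among the 157 (0.637%, against 2.26% of all transcript clusters). No member passed as higher by limma, where 14 had an unadjusted p under 0.05 in that direction, and none passed as higher by the methods' t-test. By direction, 1.49% of all transcript clusters passed as lower and 0.777% as higher. Leaving out the fold limit added no member, and the share was 0.637% against 3.35% of all transcript clusters. At an unadjusted p under 0.05, 12.7% of members passed against 15.2% of all transcript clusters. Of the 20 such members, 14 were higher (8.92%, against 6.94%) and 6 lower in TβRIII-KD (3.82%, against 8.25%). The arrays did not overlap for 14 members higher in TβRIII-KD (8.92%, against 10% of all transcript clusters) and for 6 lower (3.82%, against 10.7%). An absolute log2 fold change over 0.5, whatever the p, was reached by 5 members (3.18%, against 3.07%): MIR95, MIR21, MIR221, MIR222 and MIR218-1.

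**Figure D1:**
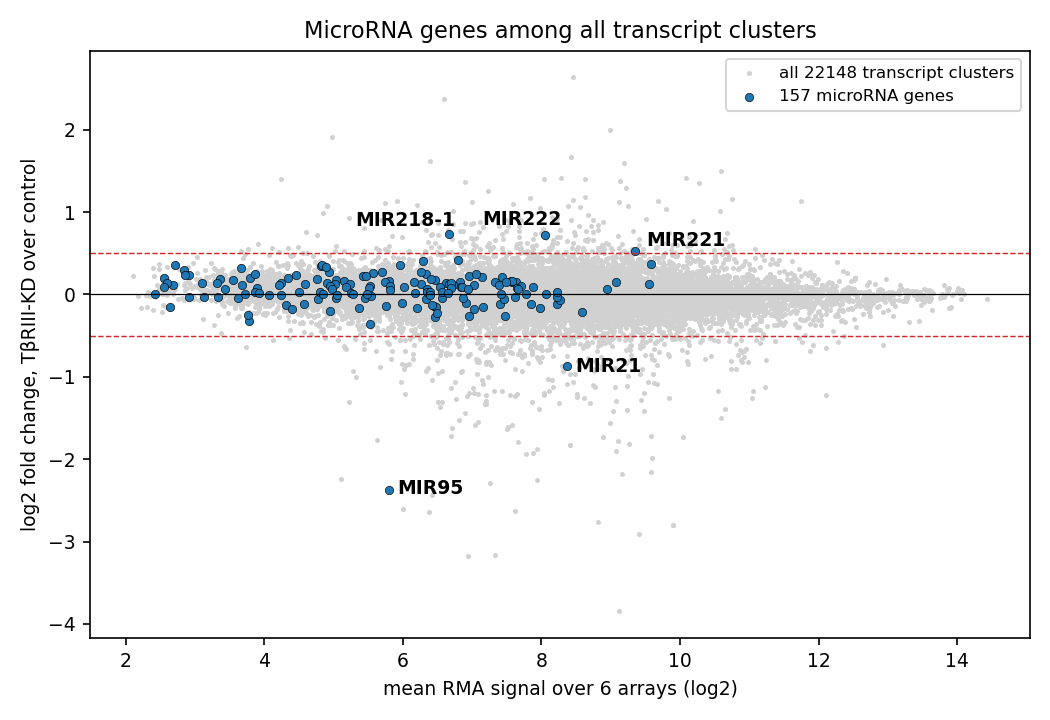
Log2 fold change (TβRIII-KD minus control) (vertical axis) against the mean log2 signal over 6 arrays (horizontal axis) for all 22148 transcript clusters in grey and the 157 microRNA genes in blue, with dashed lines at a log2 fold change of 0.5 in each direction. Most microRNA genes sit on the dim side and close to 0, MIR95 at -2.37 stands far below the rest, and MIR21, MIR221, MIR222 and MIR218-1 lie beyond the dashed lines without passing the test.

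Most members were dim. Their mean signals ran from 2.43 to 9.59 with a median of 5.96, and 139 of 157 lay below 7.70, the median of all transcript clusters. Replicate spread was wider than usual for the array, with a median within-group SD of 0.16 for members and 0.11 for all transcript clusters, and a median SE of the fold change of 0.11 against 0.09. A member at the median SE therefore needed a larger change to pass than a typical gene. Their log2 fold changes had a median of 0.09 (quartiles -0.03 and 0.16), and 108 members (68.8%) had a higher mean in TβRIII-KD, or 97 with quantile normalisation repeated and 94 to 114 with an array left out. For all transcript clusters the median was 0.01 and 54.7% had a higher mean. For those below the median signal, the median was 0.03 and 61.3% were higher. The 18 members at or above it had a median of 0.02. The median signal of the members on an array ran from 5.72 to 6.05 in control and from 5.86 to 6.06 in TβRIII-KD, so that the groups overlapped. Without control replicate 2, the lowest of these arrays, the median log2 fold change of the members was 0.04. The part of dim signal in this lean towards higher means was not tested.

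MIR21, an abundant microRNA gene of many tumours known for lowering tumour suppressors such as PDCD4 and RECK, had the next largest difference downwards. Its signal was 8.57, 8.36 and 9.48 in control and 7.86, 7.50 and 8.46 in TβRIII-KD. The groups overlapped, since TβRIII-KD replicate 3 was above control replicate 2. The mean was 8.80 ± 0.60 in control and 7.94 ± 0.49 in TβRIII-KD, a log2 fold change of -0.86 (SE 0.31, 95% interval -1.57 to -0.15, adjusted p = 0.219). It did not pass the test, and the exact permutation test gave p = 0.2. In both groups replicate 2 was lowest and replicate 3 highest. With the replicate number as a block in limma, the adjusted p of MIR21 was 0.00158. Whether the numbers pair the arrays is not known. VMP1, the gene of an endoplasmic reticulum protein needed for autophagy, holds the hairpin of MIR21 on the same strand and read 11.48 in control and 11.28 in TβRIII-KD (log2 fold change -0.19, adjusted p = 0.336).

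MIR221 and MIR222, neighbours on X that share a seed and are known for lowering the cell cycle inhibitor CDKN1B and the receptor KIT, both had a higher mean in TβRIII-KD. MIR221 read 9.04, 8.90 and 9.33 in control and 9.37, 9.64 and 9.84 in TβRIII-KD. Its arrays did not overlap, though control replicate 3 and TβRIII-KD replicate 1 were close. The log2 fold change was 0.53 (SE 0.14, 95% interval 0.20 to 0.85, adjusted p = 0.0965). MIR222 read 8.04, 6.97 and 8.05 in control and 8.50, 7.78 and 8.96 in TβRIII-KD. Here the groups overlapped, and replicate 2 was the lowest array of each. Its log2 fold change was 0.72 (SE 0.35, 95% interval -0.07 to 1.51, adjusted p = 0.376). Neither gene passed, and the exact permutation p was 0.1 for MIR221 and 0.3 for MIR222. With the replicate block in limma both passed (adjusted p = 0.0225 for MIR221 and 0.00721 for MIR222). The labels do not say that the replicate numbers pair the arrays.

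MIR218-1 lies in SLIT2, which encodes a secreted guidance ligand of ROBO receptors, and is best known from motor neurons. Its signal was 6.06, 6.51 and 6.30 in control and 6.76, 7.44 and 6.88 in TβRIII-KD, with no overlap between groups. The log2 fold change was 0.73 (SE 0.18, 95% interval 0.32 to 1.15, adjusted p = 0.0729), which did not pass. With the replicate block in limma MIR218-1 passed (adjusted p = 0.00413), though the labels do not say that the numbers pair the arrays. SLIT2 itself rose, from 8.28, 8.68 and 8.22 in control to 9.19, 9.53 and 9.01 in TβRIII-KD, by 0.85 (SE 0.16, adjusted p = 0.0255). The SLIT2 call was lost without control replicate 1 (adjusted p = 0.117), control replicate 3 (0.0966), TβRIII-KD replicate 1 (0.0627) or TβRIII-KD replicate 2 (0.0853), and with the methods' t-test (0.244). In control as in TβRIII-KD, replicate 2 was the highest array for both MIR218-1 and SLIT2. MIR218-2, which encodes the same miR-218-5p on chromosome 5, read 6.14, 6.10 and 5.87 in control and 6.10, 5.95 and 5.76 in TβRIII-KD. Its log2 fold change was -0.10 (adjusted p = 0.731) and its groups overlapped. The difference between the fold changes of the genes of this pair, 0.83, was the widest among 22 sets of members found to share a mature sequence, for which the median range was 0.15.

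Below the fold limit, the members with the smallest p were MIR7-2 and MIR125A. MIR7-2 belongs to the miR-7 genes, known for lowering EGFR signalling, and read 6.63, 6.45 and 6.70 in control and 7.12, 6.85 and 7.05 in TβRIII-KD. Its arrays did not overlap, and the log2 fold change was 0.42 (SE 0.10, adjusted p = 0.0629). MIR7-3, whose mature miR-7-5p also lies in the MIR7-2 hairpin, differed by 0.15 on the log2 scale (SE 0.09) and overlapped. MIR125A, a relative of the worm gene lin-4 and known for lowering ERBB2, read 6.19, 5.96 and 6.14 in control and 6.35, 6.51 and 6.62 in TβRIII-KD. It did not overlap either, and its log2 fold change was 0.40 (SE 0.10, adjusted p = 0.0686). With each array left out in turn, the adjusted p of MIR125A ran from 0.0587 to 0.198 and that of MIR7-2 from 0.0665 to 0.184. Over all alternatives the adjusted p of MIR7-2 ran from 0.0276 to 0.264, and its call did not change.

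MIR103A1, known with its relatives for lowering DICER1, was the lower member with the next smallest p after MIR95. It read 5.75, 5.60 and 5.79 in control and 5.58, 5.30 and 5.17 in TβRIII-KD. The groups did not overlap, with TβRIII-KD replicate 1 just under the lowest control. The log2 fold change was -0.36 (SE 0.11, adjusted p = 0.149). With an array left out, the limma adjusted p of MIR103A1 ran from 0.0480 to 0.380. MIR103A2, with the same mature strand, had -0.14 (adjusted p = 0.707), and MIR107, with the same seed, had 0.25 (adjusted p = 0.435). The remaining members with the smallest p upwards were MIR130A (log2 fold change 0.26, adjusted p = 0.169), MIR106B (0.23, 0.201), MIR130B (0.27, 0.219) and MIR200A (0.34, 0.244). Downwards they were MIR181B2 (-0.27, 0.226), MIR147A (-0.26, 0.276), MIR182 (-0.20, 0.311), MIR208A (-0.32, 0.460), MIR153-1 (-0.25, 0.480) and MIR191 (-0.15, 0.483). None of these passed.

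**Figure D2:**
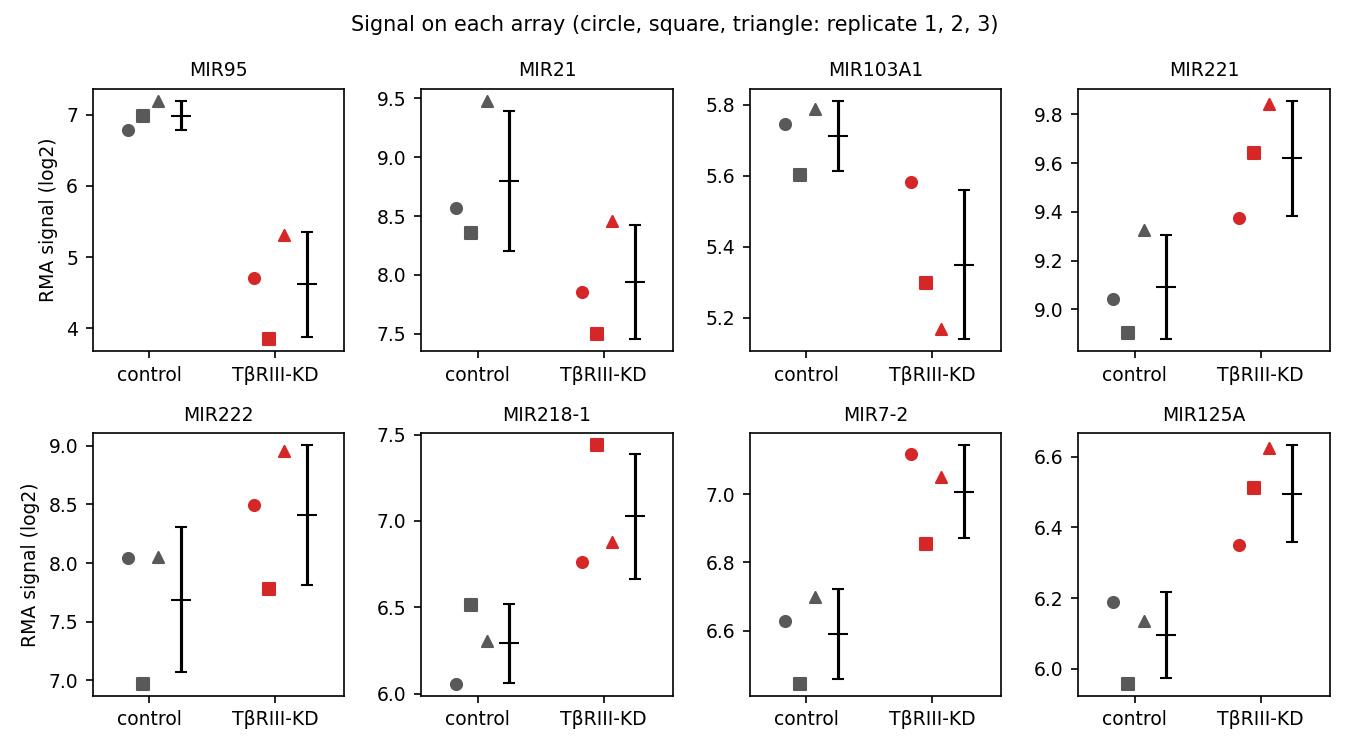
Log2 signal (vertical axis, a separate range in each panel) of 8 microRNA genes on the 3 control arrays in grey and the 3 TβRIII-KD arrays in red, with circle, square and triangle for replicates 1, 2 and 3 and the mean ± SD of each group in black. The groups are apart for MIR95 (6.99 against 4.62), MIR103A1, MIR221, MIR218-1, MIR7-2 and MIR125A and overlap for MIR21 and MIR222.

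The brightest members, which the array measured farthest from the floor of its scale, did not pass the test. MIRLET7A2, a let-7 gene of the family known for holding back LIN28B and cell growth, read 9.57, 8.98 and 9.65 in control and 9.63, 9.64 and 10.05 in TβRIII-KD. Control replicate 2 lay below and TβRIII-KD replicate 3 above the other arrays, the groups overlapped, and the log2 fold change was 0.37 (adjusted p = 0.396). Without control replicate 2 the fold change was 0.16. MIR326, MIR339 and MIR210, the last a gene induced by hypoxia, had log2 fold changes of 0.13, 0.15 and 0.06 (adjusted p = 0.634, 0.490 and 0.759). MIR181B1 had -0.22 (0.585) and MIR32 -0.07 (0.843). Of the members best known from breast cancer, MIR200C and MIR141 had 0.08 and 0.03, MIR10B, known for promoting invasion, 0.11, MIR31 0.15, the p53 target MIR34A 0.10 and MIR125B1 0.15. The adjusted p of these 6 lay between 0.518 and 0.945. MIR10B had a mean signal of 2.68 and was among the dimmest features of the array. MIR145, MIR155 and MIR205 share a transcript cluster with another symbol and were not members. They had -0.55, -0.15 and 0.07 (limma adjusted p = 0.0764, 0.761 and 0.844).

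Grouped by family, no family had a member past the cutoff. The 8 genes of the miR-10, miR-99, miR-100 and miR-125 family, old relatives that sit near HOX and let-7 genes, all had a higher mean in TβRIII-KD (median log2 fold change 0.16, range 0.09 to 0.40), also with quantile normalisation repeated, and 7 of them without TβRIII-KD replicate 3. So did all 5 of the miR-200 family, known for holding down the EMT factors ZEB1 and ZEB2 (median 0.08, range 0.03 to 0.34), though 4 with quantile normalisation repeated and 3 without control replicate 2. The growth-promoting miR-17-92 family was read only from its paralogs MIR106A, MIR19B2 and MIR92A2 on X and MIR106B, MIR93 and MIR25 on chromosome 7. All 6 were higher (median 0.08, range 0.01 to 0.23), and 4 with quantile normalisation repeated. Of the 10 let-7 genes 7 were higher, with a median of 0.03 and a range from -0.26 to 0.37, but 3 without control replicate 2 and 2 without TβRIII-KD replicate 3. The miR-15 and miR-16 genes, known for restraining cyclins and BCL2, had a median of 0.12 over 6 members. Of these 4 were higher, but 2 without control replicate 2. The 5 miR-181 genes leaned the other way, with 1 higher, a median of -0.17 and a range from -0.27 to 0.16, and 1 was higher with each array left out and under each scaling tried. The 3 members of miR-23, miR-27 and miR-24 had a median of 0.15. Their relatives MIR23B, MIR27B and MIR24-1 share transcript clusters with AOPEP and so were not members. These had -0.18, -0.12 and -0.19. Other relatives left out on shared transcript clusters were MIRLET7B (0.20), MIRLET7A3 (0.16), MIR29C (0.09), MIR29B2 (0.03) and MIR34C (0.02). Medians were 0.05 for the 6 of miR-30, 0.05 for the pair of miR-34 and -0.08 for the pair of miR-29. Of the miR-30 genes 4 were higher, but 1 without control replicate 2. A higher mean in TβRIII-KD was found for 68.8% of all members and for 54.7% of all transcript clusters. Each family shares the same 6 arrays. None of these family differences was tested as such.

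**Figure D3:**
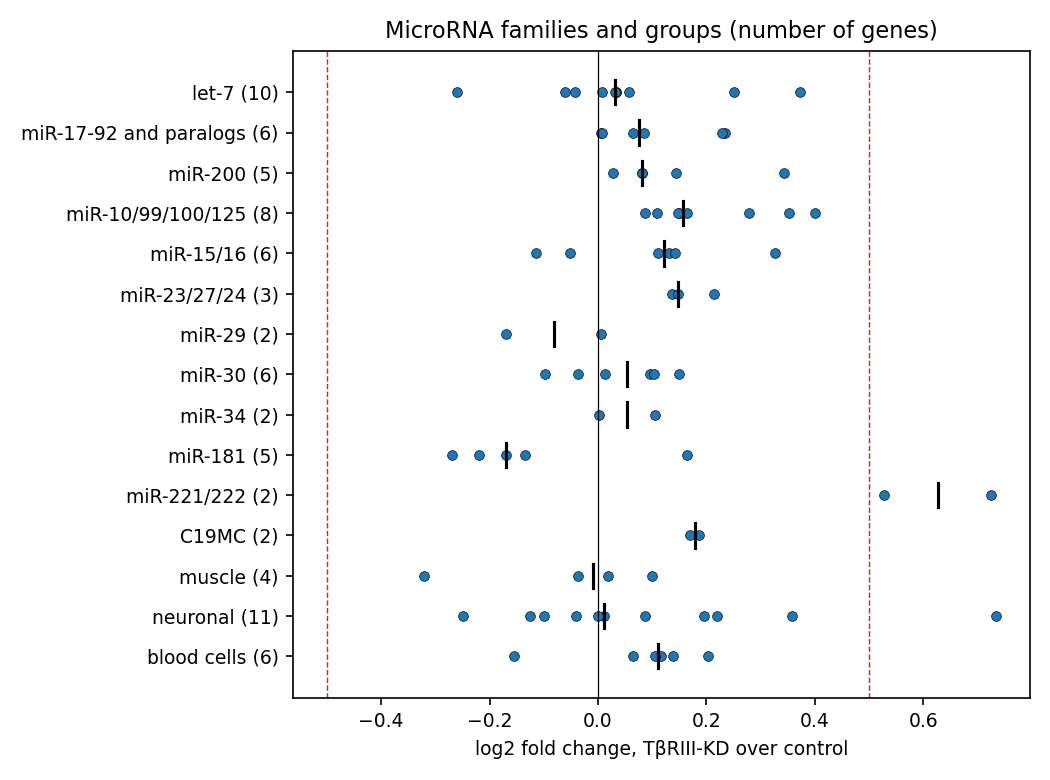
Log2 fold change (TβRIII-KD minus control) (horizontal axis) of each microRNA gene, in rows by family or tissue group with the number of genes in brackets, where points are genes, short black bars are medians and dashed lines stand at 0.5 in each direction. MIR221 and MIR222 (0.53 and 0.72) and MIR218-1 (0.73, in the neuronal row) lie beyond the line, the miR-181 genes have a median of -0.17, and no other family reaches 0.5.

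MicroRNA genes known as specific to other tissues were read beside markers of the cells they are known from. MIR122, the liver microRNA, read 3.15 ± 0.17 in control and 3.12 ± 0.13 in TβRIII-KD (log2 fold change -0.03), beside the hepatocyte markers ALB at 4.27 in both groups and APOB at 5.59 and 5.61. The 4 muscle members MIR1-1, MIR133B, MIR206 and MIR208A had fold changes from -0.32 to 0.10, and the muscle markers MYH7 and ACTA1 had 0.07 and -0.14. The 6 blood cell members ran from -0.15 to 0.20, with mean signals from 2.64 for the red cell gene MIR144 to 7.71, and the leukocyte markers PTPRC and CD14 read 4.25 and 6.79 in control and 4.40 and 6.73 in TβRIII-KD. The 11 neuronal members had a median of 0.01, with MIR218-1 at the top and MIR153-1 at the bottom, and the neuron markers RBFOX3 and SNAP25 had 0.10 and 0.21. None of these markers passed the test. MIR126, the endothelial microRNA within EGFL7, read 4.53 in control and 4.65 in TβRIII-KD (log2 fold change 0.12, adjusted p = 0.571), while of the endothelial markers PECAM1 fell by 1.04 (adjusted p = 0.00127) and CDH5 differed by -0.16 (adjusted p = 0.517).

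Neighbouring microRNA genes are often cut from 1 primary transcript. Of the 148 members whose strand the RefSeq hairpin or mature sequence gives, those within 10 kb of each other on the same strand formed 25 clusters with 57 members. In 15 clusters all members had the same sign, 13 of them higher and 2 lower in TβRIII-KD, and in 10 the signs were mixed. Over all 157 members 68.8% had a higher mean, so that a shared sign is common also between unlinked members. With quantile normalisation repeated, 11 clusters were higher and 5 lower throughout. On the deposited values, the clusters lower throughout were MIR181B1 with MIR181A1 (-0.22 and -0.17) and MIR181B2 with MIR181A2 (-0.27 and -0.13). MIR23A, MIR27A and MIR24-2 spanned 0.14 to 0.21 and MIR16-1 with MIR15A 0.11 to 0.14, the narrowest of the clusters named here. MIR99B, MIRLET7E and MIR125A spanned 0.03 to 0.40. MIR182 and MIR96, in a cluster with MIR183, lay on opposite sides of 0 at -0.20 and 0.23, and MIRLET7A1, MIRLET7F1 and MIRLET7D spanned -0.26 to 0.06. The arrays are the same for all members of a cluster, so that their fold changes are not independent.

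Seeds cut across these clusters. There were 45 seeds carried by more than 1 member, and 89 members carried such a seed. The largest set was GAGGUAG, with 10 let-7 members, followed by ACAUUCA of the 5 miR-181 members and AGCAGCA of 5 miR-15 and miR-16 members. By exact match within the mature and hairpin sequences of the table, which is not complete, 24 mature sequences were encoded by more than 1 member. These came from 22 sets of members, since MIR9-1 with MIR9-3 and MIR516B1 with MIR516B2 share both strands. In 16 sets every member had the same sign, where 68.8% of all members had a higher mean. For hsa-miR-125b-5p the loci had 0.15 and 0.16, for hsa-miR-181b-5p -0.22 and -0.27, and for hsa-let-7a-5p 0.06 and 0.37. For hsa-miR-26a-5p they had -0.17 and 0.18, and for hsa-miR-9-5p MIR9-1 had 0.36 while MIR9-3 was near 0.

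Many microRNA hairpins lie inside the introns of protein-coding genes. A measured gene on the same strand held the hairpin for 60 of the 140 members with a hairpin in the table, in 51 host genes. Hosts were found by the span of the gene, not by its introns. Some of them, such as DLEU2 and MIR31HG, are noncoding RNA genes. Of these hosts SLIT2 was the one that rose and RCL1 the one that fell past the cutoff, 2 of 51 hosts, beside 2.26% of all transcript clusters. RCL1, which acts in ribosomal RNA processing, read 9.01, 9.04 and 9.37 in control and 8.43, 8.33 and 8.60 in TβRIII-KD, with no overlap (log2 fold change -0.69, adjusted p = 0.0157). The member within it, MIR101-2, read 3.64 in control and 3.59 in TβRIII-KD (-0.05, adjusted p = 0.932). TLN2, which encodes a talin that links integrins to actin, had 0.47 with an adjusted p of 0.0227, under the fold limit, and its member MIR190A had 0.09 (adjusted p = 0.826). There was no pair in which both host and member passed. Host and member had the same sign in 44 of 60 pairs, where 68.8% of all members had a higher mean. The pairs share the 6 arrays, and some share a host, so that they are not independent. Across the pairs the log2 fold changes had a Pearson r of 0.49 and a Spearman rho of 0.48. MIR106B lies in the replication gene MCM7 (0.15) and MIR103A1 in the coenzyme A gene PANK3 (-0.13), while MIR125A, MIR99B and MIRLET7E share SPACA6 (0.05).

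**Figure D4:**
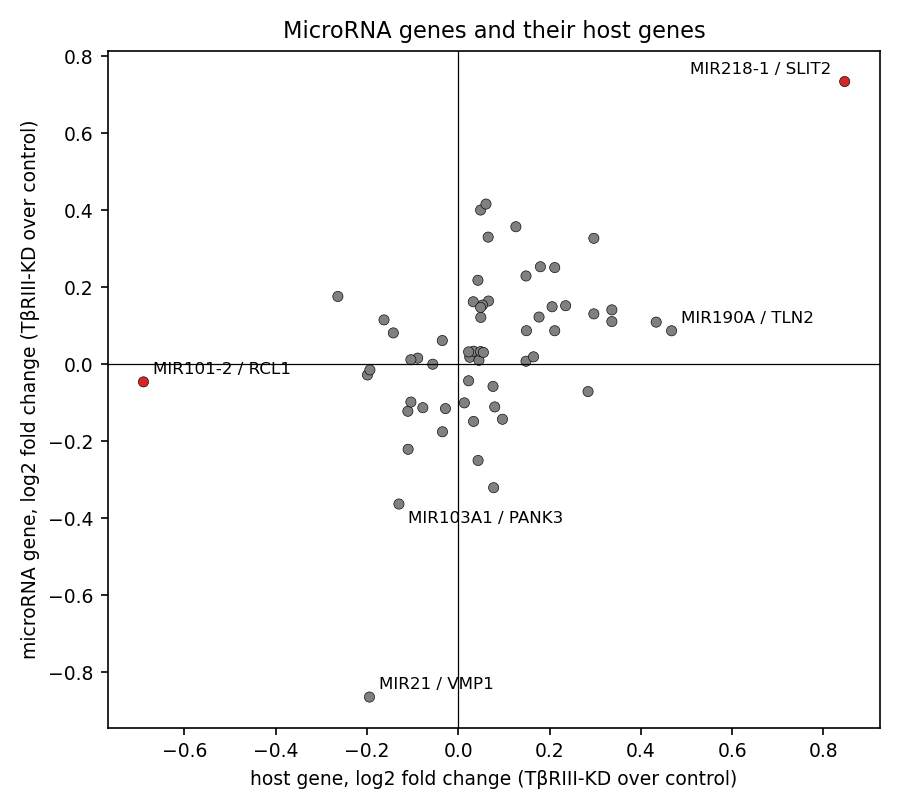
Log2 fold change (TβRIII-KD minus control) of 60 microRNA genes (vertical axis) against that of the measured gene that holds their hairpin on the same strand (horizontal axis), with the pairs whose host passed the cutoff in red. MIR218-1 with SLIT2 lies at the upper right (0.73 and 0.85), MIR101-2 stays at -0.05 beside a host at -0.69, and MIR21 at -0.86 lies below a host at -0.19.

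Messenger RNAs that textbooks name as targets of these members were read from the same arrays. Of the MIR21 targets, PDCD4 differed by -0.25 on the log2 scale (adjusted p = 0.207) and RECK 0.05 (0.778). Of the MIR221 and MIR222 targets, CDKN1B differed by 0.35 (SE 0.09), not past the test, and KIT by 0.18 (adjusted p = 0.668). Of the miR-200 targets, ZEB2 had 0.44 with an adjusted p of 0.0220, under the fold limit, and ZEB1 -0.12 (0.521). Among the targets of MIR106B, TGFBR2, the gene of the type II TGF-β receptor, had -0.37 (adjusted p = 0.0374, under the fold limit). With an array left out, the limma adjusted p ran from 0.0726 to 0.134 for TGFBR2 and from 0.0415 to 0.113 for ZEB2. The MIR106B targets CDKN1A and BCL2L11 had 0.38 (adjusted p = 0.0569) and 0.20 (0.267). CDK6, a cyclin D kinase and target of MIR34A, was the target that rose past the cutoff, from 8.58 ± 0.06 to 9.17 ± 0.13 (SD over 3 arrays), by 0.59 (adjusted p = 0.00858). The CDK6 call was lost without control replicate 1 (adjusted p = 0.0532) and with the methods' t-test (0.121). MIR34A itself had 0.10 (adjusted p = 0.781), with TβRIII-KD arrays that overlapped control. MIR31 targets ITGA5 and RHOA had -0.11 and -0.07, and the MIR34A target MET had 0.11. Whether any of these differences came through a microRNA was not tested.

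The genes that make and use microRNAs were then read as a list of 39. None passed the cutoff in either direction, where 4 higher and 2 lower had an unadjusted p under 0.05 by limma and the methods' t-test also called none. The shares over all transcript clusters were 2.26% past the cutoff and 15.2% at the unadjusted p. Their median log2 fold change was -0.0038, beside 0.01 for all transcript clusters, with a range from -0.40 to 0.23. In the nucleus, DROSHA read 9.34 ± 0.02 in both groups (log2 fold change -0.01, 95% interval -0.16 to 0.14) and its partner DGCR8 went from 8.18 to 8.39 (0.21, adjusted p = 0.221). The export factor XPO5 had -0.06 (0.806) and DICER1 0.10 (0.637). AGO2, the Argonaute that cuts targets, had -0.01 (95% interval -0.16 to 0.15), and its partner TNRC6A, which brings in the silencing machinery, had 0.23 (adjusted p = 0.115). DCP2, the decapping enzyme, had 0.20 (adjusted p = 0.230). ADARB1, an enzyme that edits adenosine in double-stranded RNA, read 10.18, 10.22 and 10.14 in control and 9.72, 9.70 and 9.91 in TβRIII-KD, with no overlap. Its log2 fold change of -0.40 (SE 0.08, adjusted p = 0.0334) lay under the fold limit. With an array left out, its limma adjusted p ran from 0.0154 to 0.134.

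**Figure D5:**
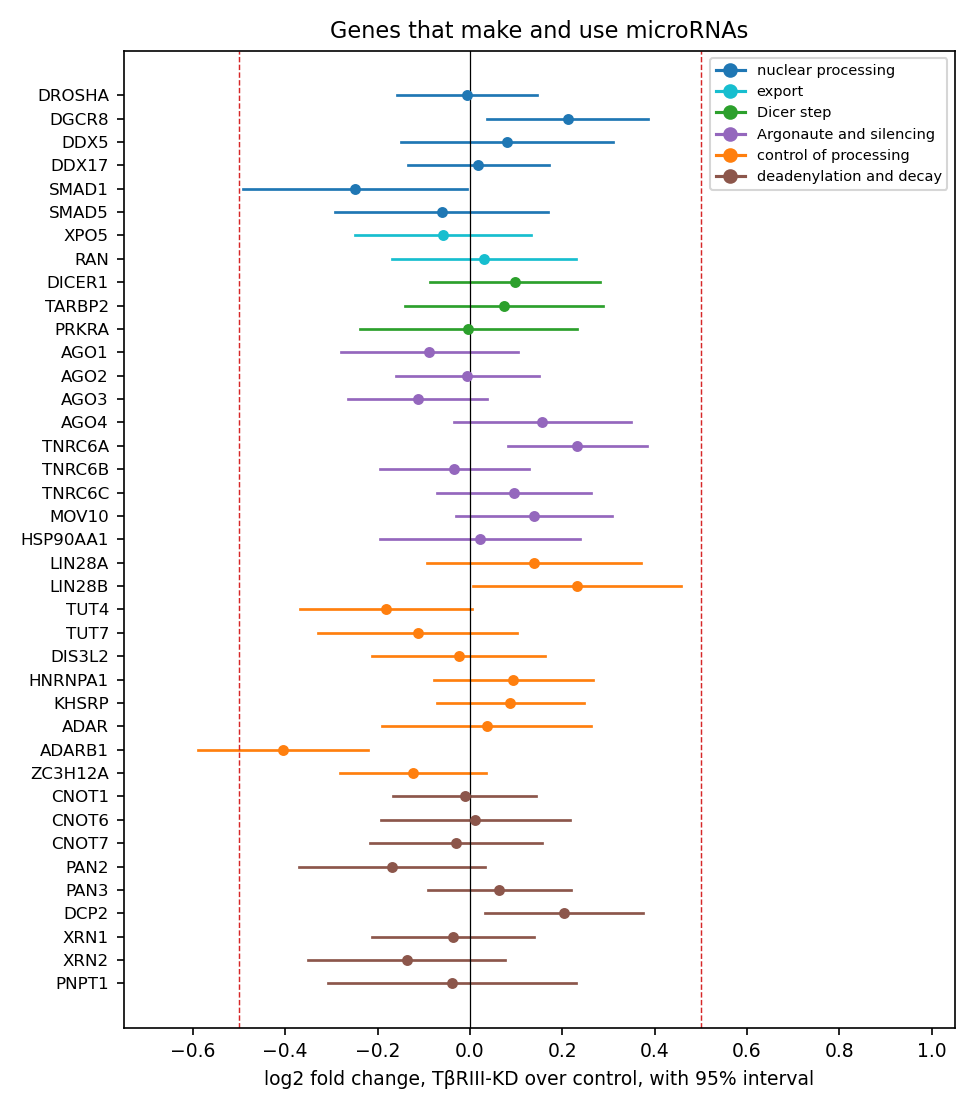
Log2 fold change (TβRIII-KD minus control) with its 95% interval (horizontal axis) for 39 genes that make, use or degrade microRNAs, coloured by step, with dashed lines at 0.5 in each direction. All points lie between -0.40 and 0.23, and ADARB1 at -0.40 is the gene farthest from 0.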

How the data were processed

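RNA of SUM159 three-dimensional cultures was hybridised to Affymetrix Human Gene 1.0 ST arrays. The values are log2 signals as the authors deposited them, made by RMA (background correction, quantile normalisation, median polish) with oligo in R 3.0.1. No source used here gives the oligo version or a filter on transcript clusters. Of 22148 transcript clusters, 19129 had 1 symbol, 1735 several and 1284 none in the platform annotation. A gene was read from its cluster with the highest mean signal. A further 32 clusters with a microRNA and another symbol were left out. Groups came from the labels, 3 arrays each. TβRIII-KD and control were compared with limma 3.58.1 in R 4.3.3 (moderated, two-sided, without trend), with Benjamini-Hochberg adjustment over all 22148. The SE is limma's. The cutoff is the study's. For 6 genes an exact permutation test over the 6 arrays was added. The labels do not say whether replicate numbers pair the arrays. Deviations from the group means had r of -0.06, 0.11 and 0.31 between arrays of one number, too few values to settle it. The main fit used no block. The fitting code was tested on simulated data. Alternatives were moderation with a trend or robustly, array weights, the methods' t-test, centring, repeated quantile normalisation, a filter on dim clusters, the replicate block, no fold limit, gene means, identical clusters counted once and each array left out. Genes named were TGFBR3, members past the cutoff, the 8 with the smallest p in each direction, the 8 brightest, members known in breast cancer, and their hosts, targets and pathway genes; others illustrate a family, cluster, seed or host. Members and lists were chosen with earlier results of these data known. The number of arrays limits precision.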

Additional observations from a re-analysis of the deposited data

How the results depend on the processing

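MIR95 stayed lower under every alternative that kept it. The count of members past the cutoff was 0 lower with the methods' t-test, and 0 lower with transcript clusters under the median signal left out, which drops MIR95. With a replicate block it was 3 higher (MIR218-1, MIR221 and MIR222) and 2 lower (MIR95 and MIR21). The share of all transcript clusters past the cutoff with the block is not given here. These counts can therefore not be set against the rest of the array. Whether the numbers pair the arrays is not known. By the check of deviations, control replicates 1 and 2 correlated best with another number. With each array left out in turn the count of members was 0 higher and 1 lower throughout. The pathway count was 1 lower (ADARB1) without the fold limit. Over all transcript clusters, 172 rose and 329 fell. The counts were 1 higher and 16 lower with the methods' t-test, 114 higher with the filter and 275 higher without the fold limit, and leaving out an array gave 88 to 251 higher and 215 to 387 lower. The median log2 fold change of the members lay between 0.02 and 0.12 over the alternatives.

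Signs turned only for named genes close to 0, none of which passed the test. MIR141 went to -0.023 with repeated quantile normalisation and to -0.0038 with array weights, DROSHA to 0.015 and AGO2 to 0.013 with the former, and AGO2 to 0.00061 with the latter. Leaving out an array gave ranges of -0.10 to 0.14 for MIR141, -0.052 to 0.16 for MIR200C, -0.19 to 0.034 for MIR32, -0.029 to 0.26 for MIR34A, -0.00057 to 0.27 for MIR125B1, -0.021 to 0.0058 for DROSHA, -0.029 to 0.013 for AGO2, -0.097 to 0.010 for XPO5, -0.0054 to 0.083 for PTPRN, -0.014 to 0.10 for DALRD3 and -0.0024 to 0.10 for SPACA6. For targets they were -0.21 to 0.030 for ITGA5, -0.15 to 0.022 for RHOA and -0.12 to 0.0091 for HOXD10. No background level was analysed, so no limit of detection can be given for the dim members.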
